A study of Mus musculus with 9 samples.

Results

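Interferon-stimulated antiviral genes were followed in macrophages of Tet2 knockout (KO) and wild-type (WT) mice. The members are 39 mouse genes given by symbol, chosen as genes that interferon induces and that act against viruses, out of 47731 genes in the RNA table. The cells were macrophages at passage 0 treated with M-CSF, on which macrophages depend to survive and mature, and this held for both genotypes. RNA depleted of ribosomal RNA was counted per gene in 2 KO and 3 WT libraries. DNA enriched for 5-hydroxymethylcytosine (5hmC), the base that TET2 makes by oxidising 5-methylcytosine, was counted per peak in 2 KO and 2 WT libraries. Tissue of origin and allele design were not stated in these sources, nor whether each library came from its own animal or culture. The p-values therefore reflect the spread among the sequenced libraries alone, and that spread may be technical.

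Type I interferons bind a receptor of the IFNAR1 and IFNAR2 chains on the cell surface, which activates the kinases JAK1 and TYK2. The signal passes through STAT2 and IRF9, subunits of the factor ISGF3, and ISGF3 binds interferon-stimulated response elements (ISREs) in the promoters of the target genes. Macrophages keep some of these genes on at rest through a low basal interferon signal and raise them strongly on infection. The encoded proteins sense viral RNA and DNA, degrade RNA, block translation, or act back on the pathway itself.

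Promoter sequences were available for 29 of the 39 members, as RefSeq windows of build GRCm38.p6 running from 250 bases before to 50 bases after a start site. The core of the response element, GAAANNGAA read on either strand with overlapping matches kept, was present in 17 of the 29 (58.6%), against 9.76% of all 27025 genes with a window of that kind. The core of the gamma-activated site, TTCNNNGAA, was in 5 of the 29 (17.2%), against 9.55% of all genes. It was found together with the response element core in 3 members and overlapped it in 1. A match is a description of letters and not evidence of binding.

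The 6 windows below show how the cores are placed in members whose RNA is described library by library. Each is 70 bases upstream of the start site, read 5′ to 3′ along the gene, and the capitals mark GAAANNGAA or its reverse complement. Isg15, Oas1a and Bst2 are shown because their cores overlap in tandem on the gene's strand. Stat2, Ifih1 and Rsad2 are shown because each extract holds 1 core on the opposite strand, and Ifih1 has a further core after its start site, outside the extract. The windows are chr4:156200846-156200915 on the minus strand for Isg15, chr5:120907526-120907595 on the minus strand for Oas1a and chr8:71537558-71537627 on the minus strand for Bst2. Those of the second set are chr10:128270248-128270317 on the plus strand for Stat2, chr2:62646329-62646398 on the minus strand for Ifih1 and chr12:26456533-26456602 on the minus strand for Rsad2.
Isg15: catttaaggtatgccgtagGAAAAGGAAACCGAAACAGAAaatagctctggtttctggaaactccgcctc
Oas1a: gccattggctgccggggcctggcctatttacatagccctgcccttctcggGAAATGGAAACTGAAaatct
Bst2: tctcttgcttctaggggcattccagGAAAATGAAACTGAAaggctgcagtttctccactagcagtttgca
Stat2: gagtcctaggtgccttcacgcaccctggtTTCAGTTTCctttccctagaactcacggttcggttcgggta
Ifih1: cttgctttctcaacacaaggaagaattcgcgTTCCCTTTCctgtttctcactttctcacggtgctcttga
Rsad2: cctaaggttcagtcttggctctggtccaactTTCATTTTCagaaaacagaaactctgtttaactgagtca
Isg15 held 3 overlapping cores, the most of any member, a number shared by Ifit1 and Ifit3. Among the members without a core in the window were Oasl1 and Irf7, which had the largest differences in RNA described below. The median RNA difference was 1.46 on the log2 scale in the 17 members with a core and 1.5 in the 12 without one.

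The RNA libraries held 16053426 and 25479447 counts in genes (KO replicates 1 and 2), against 17569441, 51355576 and 56394358 (WT replicates 1, 2 and 3). Levels below are given per 1000000 counts after TMM scaling of the library (CPM), a scale without gene length, and are always listed in replicate order. Counts over the whole Tet2 gene did not separate the genotypes, with 228 and 122 CPM in the KO libraries, against 104, 136 and 39.2 CPM in the WT libraries (log2 0.91 ± 0.56, SE; edgeR adjusted p = 0.520). A feature of the table with the identifier ENSMUSGKI000000001, not described in the sources used here, had 1452 and 2245 counts in the KO libraries and 0 in every WT library. Macrophage genes were present throughout, with all 15 of a marker list tested, but they moved in both directions. DESeq2 called 3 of them higher and 3 lower in KO libraries and edgeR called 0, and 6 lay higher and 5 lower without overlap. Of all 14851 genes tested, DESeq2 called 500 higher and 711 lower, and 17.2% lay higher without overlap. Adgre1, which encodes F4/80, had 7100 and 5726 CPM in the KO libraries, against 1588, 2912 and 759 CPM in the WT libraries. Cd68, a lysosomal membrane protein gene, had 209 and 359 CPM in the KO libraries, against 1546, 633 and 663 CPM in the WT libraries. Csf1r, the M-CSF receptor, had 1057 and 1241 CPM in the KO libraries, against 2440, 1889 and 1166 CPM in the WT libraries, and overlapped. The part of these macrophage markers in the results below was not tested. WT replicate 3 stood apart in stromal and osteoblast markers, all 14 of which were counted: they summed to 18.4 and 13.9 CPM in the KO libraries, against 9.03, 7.24 and 5019 CPM in the WT libraries.

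All 39 members had a higher fitted RNA level in KO than in WT libraries, against 48.4% of the 14851 genes tested. The members were chosen with earlier results of these data known, so this and the shares below describe the list and do not test it. The median difference was 1.56 on the log2 scale, or 2.94-fold, beside -0.03 over all tested genes. The members spanned 0.36 for Trim25 to 4.07 for Oasl1. No member passed the quasi-likelihood test of edgeR (smallest adjusted p = 0.226, Ifi35), and of all tested genes 0.0135% were called higher in KO libraries by that rule. At an unadjusted edgeR p under 0.05 there were 25 members, all higher in KO libraries, against 5.95% of all tested genes in that direction. DESeq2 called 13 members higher, at an adjusted p under 0.05, against 3.37% of all tested genes. In bulk RNA, fewer cells of a type and less RNA per cell cannot be told apart.

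In 37 of the 39 members both KO libraries lay above all 3 WT libraries, which held for 17.2% of all tested genes. The exceptions were Trim25 and Ifi204. Summed over the members, the level was 6792 and 5114 CPM in the KO libraries, against 1411, 3433 and 1503 CPM in the WT libraries. These sums correspond to 0.693% and 0.527% of counts in the KO libraries, against 0.117%, 0.364% and 0.159% in the WT libraries. WT replicate 2 thus stood between the KO libraries and the other WT libraries.

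**Figure D1:**
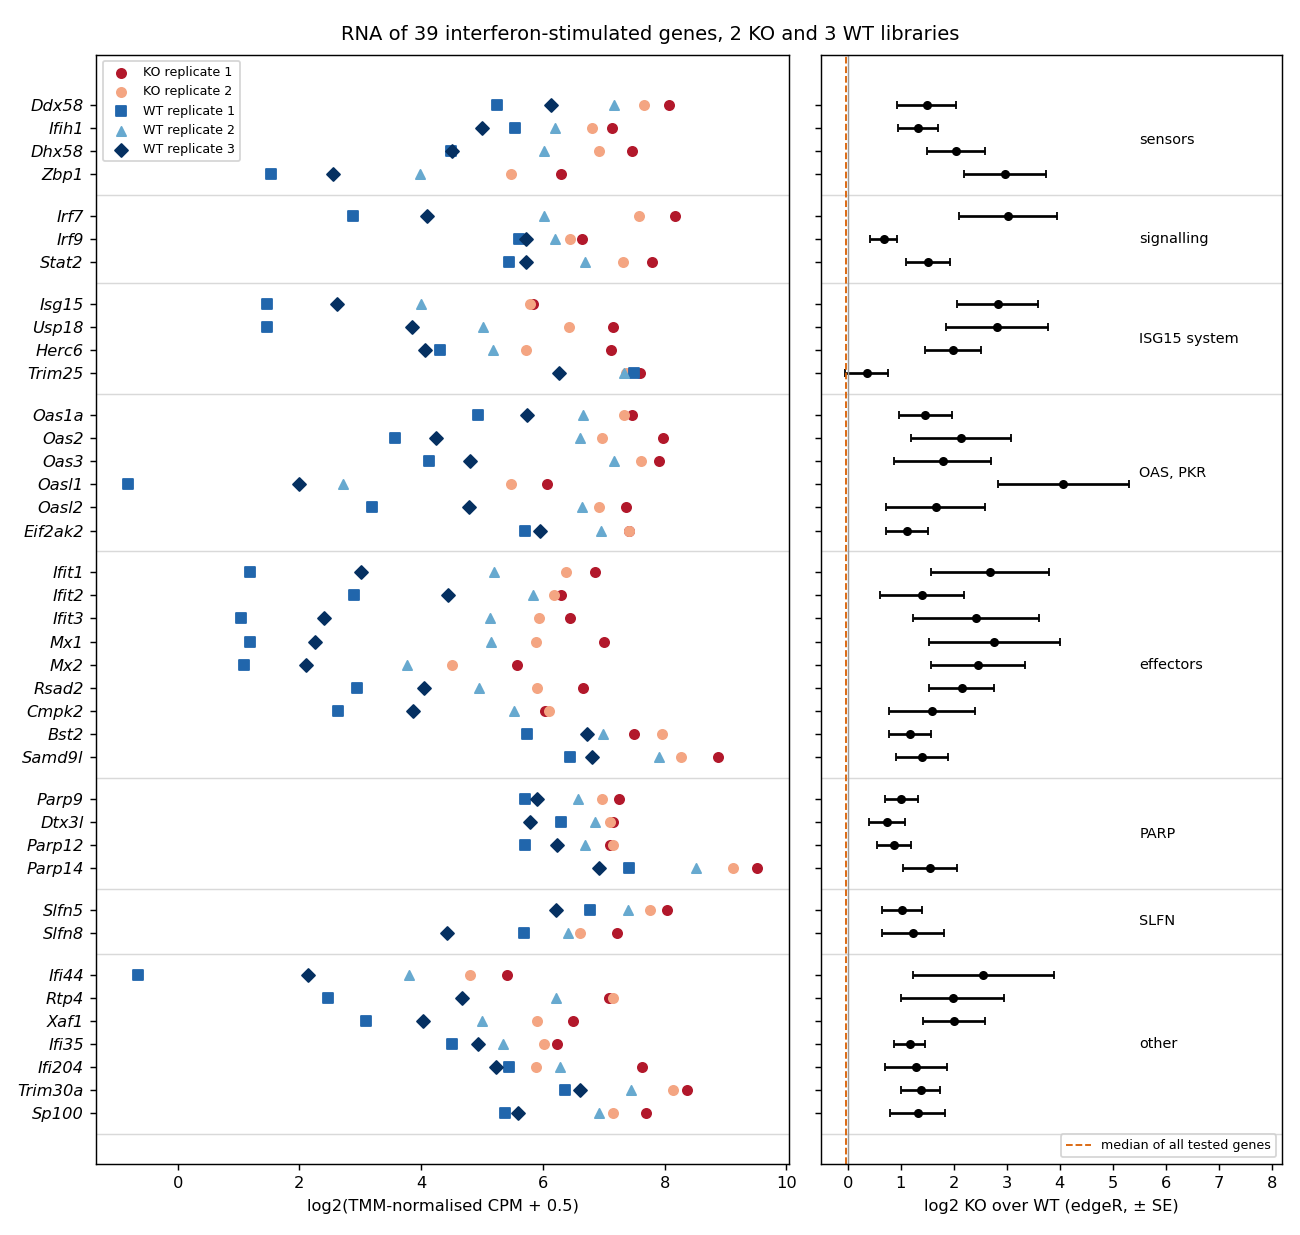
The left panel gives log2(CPM + 0.5) of each of the 39 members (rows, grouped by role) in each RNA library, with circles for KO and squares, triangles and diamonds for WT replicates 1, 2 and 3. The right panel gives the fitted log2 difference, KO over WT, with its standard error (n = 2 KO and 3 WT libraries), beside the median of all tested genes at -0.03. In 37 rows both circles lie right of all WT symbols, and all 39 differences are above 0.

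**Figure D2:**
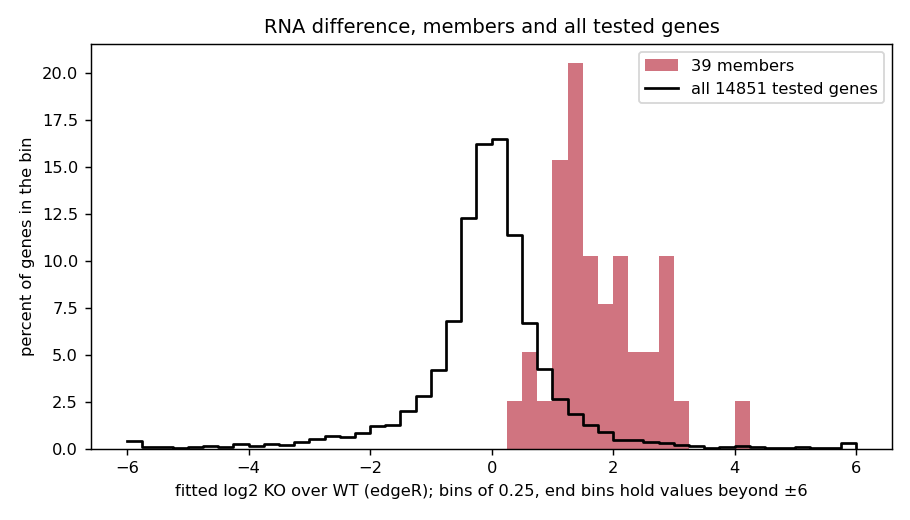
The percent of genes in bins of the fitted log2 RNA difference, KO over WT, is drawn as bars for the 39 members and as a line for all 14851 tested genes. The members lie between 0.36 and 4.07 with a median of 1.56, and the line is centred near its median of -0.03.

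Within a genotype the libraries came in nearly the same order across the members. Among the WT libraries, replicate 2 was the highest in 38 members, against 29.5% of all tested genes, and replicate 1 was the lowest in 31. WT replicate 3 was the lowest in the other 8, which were Ifih1, Herc6, Trim25, Dtx3l, Parp14, Slfn5, Slfn8 and Ifi204. KO replicate 1 was above KO replicate 2 in 35 members, against 49.5% of all tested genes. The 4 members higher in KO replicate 2 were Cmpk2, Bst2, Parp12 and Rtp4.

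The ratio of the highest to the lowest library within a genotype had a median over the members of 1.38 in KO and 3.85 in WT. In KO it ran between 1.0 for Eif2ak2 and 3.36 for Ifi204, and in WT between 1.5 for Irf9 and 97.7 for Ifi44. The KO ratio is taken over 2 libraries and the WT ratio over 3, so they cannot be compared directly. With 0.5 CPM added to each level, the median within KO was 1.38 for the members and 1.25 for all tested genes. Within WT it was 3.76 for the members and 1.63 for all tested genes. The WT libraries thus differed more among themselves in these genes than in the typical gene. More than 10-fold between WT libraries was seen in 8 members, namely Usp18, Oasl1, Oasl2, Ifit1, Ifit3, Mx1, Ifi44 and Rtp4. The lower KO library exceeded the highest WT library by a median of 1.52-fold, between 0.759-fold for Ifi204 and 7.23-fold for Oasl1.

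The median difference was recomputed with each library left out. It was 1.38 without KO replicate 1 and 1.72 without KO replicate 2, and all 39 members kept a higher fitted level in KO libraries. It was 1.26 without WT replicate 1, 2.41 without WT replicate 2 and 1.38 without WT replicate 3, again with all 39 higher. The count of members at an unadjusted edgeR p under 0.05 was 0 without KO replicate 1 and 10 without KO replicate 2. Leaving out WT replicates 1, 2 and 3 in turn gave 22, 38 and 16 such members, so WT replicate 2 was the library that narrowed the difference. No edgeR fit that left out a library called a member after adjustment. DESeq2, which called 13 with all libraries, called 14, 35 and 6 without WT replicates 1, 2 and 3 in turn. Over all genes it called 618 of 14222 higher without WT replicate 2, beside 500 of 14851 with all libraries. Without WT replicates 1 and 3 it called 367 of 15468 and 569 of 14218 higher. With a KO replicate left out only 1 KO library remained, so spread within KO could not be measured and DESeq2 calls are not given. Shares of all tested genes at the unadjusted edgeR p were not computed with a library left out. With 734 transcripts high in WT replicate 3 masked, including the stromal ones, the median was 1.56 as before.

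**Figure D3:**
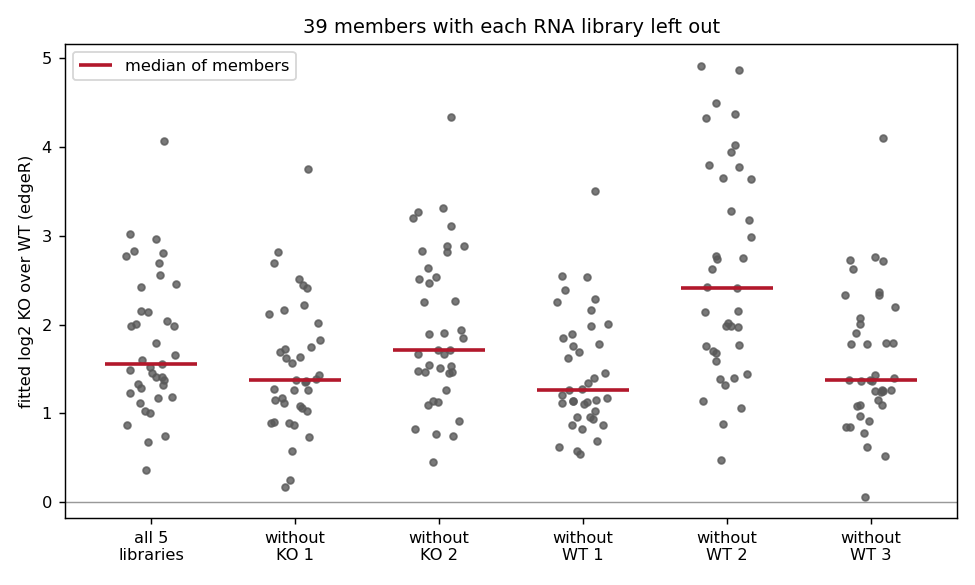
Each point is the fitted log2 RNA difference, KO over WT, of 1 of the 39 members, with all 5 libraries and with each library left out, and the bars are medians. The medians lie between 1.26 without WT replicate 1 and 2.41 without WT replicate 2, beside 1.56 with all libraries, and every point is above 0.

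The 4 sensors detect viral nucleic acid in the cytosol. All 4 lay without overlap between genotypes and had an unadjusted edgeR p under 0.05, and DESeq2 called Ifih1, Dhx58 and Zbp1, with a median of 1.77 on the log2 scale. Zbp1, which binds left-handed nucleic acid and can start necroptosis, had 77.9 and 43.9 CPM in the KO libraries, against 2.39, 15.3 and 5.38 CPM in the WT libraries. Its log2 difference was 2.97 ± 0.78 (SE; edgeR adjusted p = 0.238, DESeq2 adjusted p = 0.00610). The lower KO library thus held more than the highest WT library, which was replicate 2. Dhx58 encodes LGP2, a relative of RIG-I and MDA5 that modulates both, and had 176 and 121 CPM in the KO libraries, against 22.1, 64.0 and 22.2 CPM in the WT libraries. The difference was 2.04 ± 0.55 (SE; edgeR adjusted p = 0.238, DESeq2 adjusted p = 0.0149). WT replicates 1 and 3 were nearly level and WT replicate 2 stood above them. Ifih1, which encodes MDA5, the sensor of long double-stranded RNA, had 140 and 112 CPM in the KO libraries, against 46.1, 72.6 and 31.6 CPM in the WT libraries. Its difference of 1.33 ± 0.38 (SE; edgeR adjusted p = 0.247, DESeq2 adjusted p = 0.0334) was the smallest of the sensors. Ddx58, which encodes RIG-I, the sensor of short RNA with a triphosphate end, had 269 and 201 CPM in the KO libraries, against 37.3, 144 and 69.6 CPM in the WT libraries.

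The 3 signalling members are the ISGF3 subunits STAT2 and IRF9 and the factor IRF7, which drives the interferon alpha genes. They lay without overlap in all 3 cases and had a median log2 difference of 1.52, but they differed from one another in size. Irf7 had 288 and 190 CPM in the KO libraries, against 6.91, 64.7 and 16.7 CPM in the WT libraries. At 3.02 ± 0.92 (SE; edgeR adjusted p = 0.269, DESeq2 adjusted p = 0.0166) it had the second largest difference of the members, and it spanned a wide range within WT. Stat2 had 221 and 158 CPM in the KO libraries, against 43.2, 103 and 52.2 CPM in the WT libraries. Its difference was 1.52 ± 0.42 (SE; edgeR adjusted p = 0.244, DESeq2 adjusted p = 0.0302). Both KO libraries lay above WT replicate 2, the highest of WT. Irf9, the DNA-binding subunit, had 99.4 and 86.2 CPM in the KO libraries, against 48.3, 72.6 and 52.5 CPM in the WT libraries. With 0.68 ± 0.25 (SE; edgeR adjusted p = 0.321, DESeq2 adjusted p = 0.152) it was called by neither tool, and its WT libraries were the closest together of any member.

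ISG15 is a ubiquitin-like protein that is secreted or joined to other proteins, HERC6 is the mouse ligase that joins it, and USP18 removes it and also blocks the interferon receptor. These 3 genes lay without overlap and were called by DESeq2, while Trim25, the ligase that activates RIG-I, differed least of all members. Isg15 had 56.5 and 55.0 CPM in the KO libraries, against 2.26, 15.5 and 5.62 CPM in the WT libraries. The difference was 2.83 ± 0.76 (SE; edgeR adjusted p = 0.238, DESeq2 adjusted p = 0.00860). The KO libraries were nearly equal, so the spread lay within WT. Usp18 had 141 and 85.7 CPM in the KO libraries, against 2.26, 32 and 14 CPM in the WT libraries. Its difference was 2.81 ± 0.96 (SE; edgeR adjusted p = 0.305, DESeq2 adjusted p = 0.0448). WT replicate 1 was the lowest library in both of these genes. Herc6 had 138 and 52.4 CPM in the KO libraries, against 19.3, 35.8 and 16.2 CPM in the WT libraries (log2 1.99 ± 0.53, SE; edgeR adjusted p = 0.238, DESeq2 adjusted p = 0.0154). Its KO libraries stood further apart than those of most members. Trim25 had 193 and 164 CPM in the KO libraries, against 181, 161 and 76.5 CPM in the WT libraries, so the genotypes overlapped. Its difference of 0.36 ± 0.40 (SE; edgeR adjusted p = 0.715) was 0.06 without WT replicate 3.

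The OAS enzymes make 2′-5′-linked oligoadenylate, which activates RNase L, and the kinase PKR, encoded by Eif2ak2, stops translation when it binds double-stranded RNA. All 6 members of this group lay without overlap, with a median of 1.73 on the log2 scale, and 3 had an unadjusted edgeR p under 0.05. Oasl1, a relative without synthetase activity that in mice restrains IRF7 translation, had 66.7 and 44.0 CPM in the KO libraries, against 0.0684, 6.08 and 3.49 CPM in the WT libraries. WT replicate 1 held 1 count of it. The difference of 4.07 ± 1.23 (SE; edgeR adjusted p = 0.268, DESeq2 adjusted p = 0.0183) was the largest of the members, and Oasl1 was the only one of the group that DESeq2 called. The mean KO level of Oasl1 was 9.10 times that of WT replicate 2, the highest such ratio among the members. Oas1a had 176 and 160 CPM in the KO libraries, against 30.0, 101 and 52.7 CPM in the WT libraries (log2 1.46 ± 0.50, SE; edgeR adjusted p = 0.306). Eif2ak2 had 171 CPM in each KO library, against 52.0, 123 and 61.7 CPM in the WT libraries (log2 1.12 ± 0.40, SE; edgeR adjusted p = 0.321). Oas2, Oas3 and Oasl2 had differences of 2.14, 1.79 and 1.66 with standard errors of 0.95, 0.91 and 0.93. In these 3 genes WT replicate 2 lay closer to the lower KO library than to the other WT libraries.

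The 9 effectors act on the virus or its RNA: IFIT1, IFIT2 and IFIT3 bind viral RNA, MX1 and MX2 are dynamin-like GTPases, viperin (Rsad2) and CMPK2 make and feed a chain-terminating nucleotide, tetherin (Bst2) holds virions at the membrane, and SAMD9L restricts poxviruses. All 9 lay without overlap, with a median log2 difference of 2.15, between 1.18 for Bst2 and 2.77 for Mx1. Of these, 4 had an unadjusted edgeR p under 0.05, and Rsad2 alone was called by DESeq2. Rsad2 had 101 and 59.7 CPM in the KO libraries, against 7.25, 30.5 and 16.1 CPM in the WT libraries (log2 2.15 ± 0.61, SE; edgeR adjusted p = 0.247, DESeq2 adjusted p = 0.0226). Bst2 had 180 and 249 CPM in the KO libraries, against 53.1, 126 and 105 CPM in the WT libraries (log2 1.18 ± 0.40, SE; edgeR adjusted p = 0.304). Samd9l had 472 and 309 CPM in the KO libraries, against 86.8, 241 and 112 CPM in the WT libraries (log2 1.41 ± 0.49, SE; edgeR adjusted p = 0.314). In all 3 the highest WT library was replicate 2 and the lowest replicate 1. The largest differences of the group came with the widest WT ranges. Mx1 had 128 and 58.9 CPM in the KO libraries, against 1.78, 34.8 and 4.26 CPM in the WT libraries, with a difference of 2.77 ± 1.23 (SE; edgeR adjusted p = 0.398). Ifit1 had 115 and 83.0 CPM in the KO libraries, against 1.78, 36.2 and 7.59 CPM in the WT libraries, with a difference of 2.69 ± 1.11 (SE; edgeR adjusted p = 0.373). Both were therefore set off from WT replicate 2 much less than from the other WT libraries. Ifit3, Mx2, Cmpk2 and Ifit2 had differences of 2.42, 2.46, 1.60 and 1.41 with standard errors of 1.19, 0.88, 0.81 and 0.79.

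PARP9, PARP12 and PARP14 belong to the family that adds ADP-ribose to proteins, and DTX3L is the ubiquitin ligase that pairs with PARP9. All 4 lay without overlap, and their median log2 difference of 0.94 was the lowest of the role groups. Parp14 had 733 and 558 CPM in the KO libraries, against 171, 367 and 121 CPM in the WT libraries (log2 1.56 ± 0.51, SE; edgeR adjusted p = 0.290, DESeq2 adjusted p = 0.0546). Parp9 had 152 and 125 CPM in the KO libraries, against 51.7, 94.6 and 59.2 CPM in the WT libraries (log2 1.01 ± 0.31, SE; edgeR adjusted p = 0.274). Parp12 had 137 and 141 CPM in the KO libraries, against 51.5, 103 and 74.5 CPM in the WT libraries (log2 0.87 ± 0.32, SE; edgeR adjusted p = 0.329). Each was lowest in WT replicate 1 or 3 and called by neither tool. Dtx3l had 142 and 137 CPM in the KO libraries, against 78.6, 116 and 55.1 CPM in the WT libraries (log2 0.75 ± 0.34, SE; edgeR adjusted p = 0.402). Parp9 and Dtx3l share 558 bases of gene body.

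Schlafen proteins SLFN5 and SLFN8 belong to a family induced by interferon in mouse immune cells. Both lay without overlap and neither was called. Slfn5 had 262 and 216 CPM in the KO libraries, against 109, 169 and 73.6 CPM in the WT libraries (log2 1.03 ± 0.38, SE; edgeR adjusted p = 0.330). Slfn8 had 148 and 96.7 CPM in the KO libraries, against 51.3, 84.7 and 21.0 CPM in the WT libraries (log2 1.23 ± 0.58, SE; edgeR adjusted p = 0.417). WT replicate 3 was the lowest library in both, unlike in most members.

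Of the 7 other interferon-induced genes, 6 lay without overlap and DESeq2 called Ifi35, Trim30a and Xaf1. Ifi35, which encodes a leucine-zipper protein that pairs with NMI, had 74.5 and 64.3 CPM in the KO libraries, against 22.3, 40.0 and 30.2 CPM in the WT libraries. The difference of 1.17 ± 0.29 (SE; edgeR adjusted p = 0.226, DESeq2 adjusted p = 0.0195) had the smallest edgeR p of the members and the second smallest standard error. Trim30a, a ubiquitin ligase that restrains Toll-like receptor signalling in mice, had 330 and 281 CPM in the KO libraries, against 81.6, 174 and 97.1 CPM in the WT libraries. Its difference was 1.38 ± 0.37 (SE; edgeR adjusted p = 0.238, DESeq2 adjusted p = 0.0238). The KO libraries of both genes lay close together and above WT replicate 2. Xaf1, which antagonises the apoptosis inhibitor XIAP, had 89.2 and 59.5 CPM in the KO libraries, against 8.0, 31.4 and 15.9 CPM in the WT libraries (log2 2.01 ± 0.58, SE; edgeR adjusted p = 0.254, DESeq2 adjusted p = 0.0278). Ifi204, a DNA sensor of the PYHIN family, had 197 and 58.7 CPM in the KO libraries, against 42.9, 77.3 and 36.9 CPM in the WT libraries. Its KO replicate 2 lay below WT replicate 2, and its difference of 1.29 ± 0.58 (SE; edgeR adjusted p = 0.402) was 0.17 without KO replicate 1. Ifi44 held 2 counts in WT replicate 1 and had a difference of 2.56 ± 1.33. Rtp4 and the nuclear body gene Sp100 had differences of 1.98 ± 0.97 and 1.32 ± 0.52 (SE).

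Some members have gene bodies that overlap other genes, and their single values are uncertain to that extent, since no source states whether counting used strand. Oas1a with Oas1g, Ifit3 with Ifit3b and Slfn8 with Slfn9 are pairs of close relatives, and whether reads were shared within a pair was not tested. The body of Ifit1 overlaps that of Ifit1bl1 over 9121 bases, Slfn5 overlaps the antisense transcript Slfn5os over 9333 bases, and Usp18 overlaps Gm44148 over 15743 bases.

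Other genes of the interferon pathway were described from 6 lists, of which 110 genes were counted and 86 tested. These lists too were chosen with earlier results of these data known, so their shares are descriptions. No gene passed the edgeR test in either direction. By unadjusted edgeR p (under 0.05), 24 stood higher and 4 stood lower in KO libraries, and DESeq2 called 11 higher and 1 lower. Over all tested genes, 5.95% stood higher by that unadjusted p, and DESeq2 called 3.37% higher. Of the 86, 67 had a higher fitted level in KO libraries, against 48.4% of all tested genes. The median log2 difference was 0.67, beside -0.03 over all tested genes. The interferon genes themselves were at or near 0. Of 21 ligand genes, 17 had no count in any library and none passed the filter on low counts. Ifnb1, the interferon beta gene, had 6 and 0 counts in the KO libraries and 0, 1 and 1 counts in the WT libraries. A count of that size shows no difference at this depth.

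Upstream components lay on both sides of 0. Of the 5 receptor genes tested, the fitted level was higher in KO libraries for 1 and lower for 4, with log2 0.10 ± 0.24 for Ifnar1 and -0.62 ± 0.27 for Ifnar2 (SE; edgeR adjusted p = 0.889 and 0.394). Ifnar2 had 53.7 and 59.1 CPM in the KO libraries, against 108, 87.4 and 64.7 CPM in the WT libraries, so its KO libraries were the lowest. The kinase genes Jak1 and Tyk2 had log2 differences of -0.24 ± 0.24 and 0.24 ± 0.29, and Irf3, the factor that sensors activate first, had 0.01 ± 0.24 (SE).

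Irf1 and Irf8, factors that interferon gamma induces in macrophages, had lower fitted levels in KO libraries. Irf1 had 44.8 and 47.7 CPM in the KO libraries, against 73.9, 65.0 and 86.3 CPM in the WT libraries (log2 -0.70 ± 0.21, SE; edgeR adjusted p = 0.268). Irf8 had 122 and 111 CPM in the KO libraries, against 345, 171 and 153 CPM in the WT libraries (log2 -0.94 ± 0.42, SE; edgeR adjusted p = 0.399). In both genes the KO libraries lay below all WT libraries. The adaptors of RNA and DNA sensing, Mavs and Tmem173 (STING), had differences of -0.53 ± 0.32 and -0.50 ± 0.38, and Mb21d1 (cGAS), the DNA sensor that feeds STING, had 0.67 ± 0.50 (SE), with all 3 edgeR adjusted p between 0.517 and 0.592. Socs1, a feedback inhibitor of the JAK kinases, had 5.80 and 3.20 CPM in the KO libraries, against 0.547, 1.47 and 3.08 CPM in the WT libraries (log2 1.38 ± 0.77, SE; edgeR adjusted p = 0.482).

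The last list held other interferon-stimulated genes. Of 48 tested, 46 had a higher fitted level in KO libraries, against 48.4% of all tested genes, with a median log2 difference of 1.06. Both KO libraries lay above all WT libraries in 34, against 17.2% of all tested genes. At an unadjusted edgeR p under 0.05, 18 were higher and 1 lower, against 5.95% of all tested genes higher. DESeq2 called 8, all higher, against 3.37% of all tested genes called higher. The lower gene at that unadjusted p was Ifi27, named after its values were seen. It had 15.5 and 42.3 CPM in the KO libraries, against 70.1, 63.8 and 68.0 CPM in the WT libraries.

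**Figure D4:**
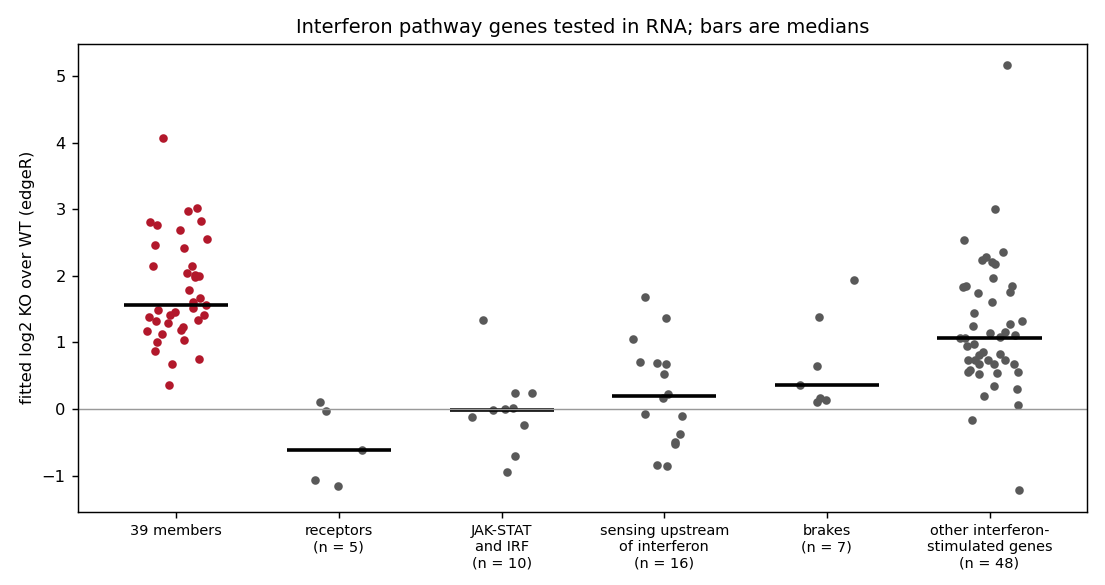
Fitted log2 RNA differences, KO over WT, are shown for the 39 members and for the tested genes of the 5 pathway lists that had any, 1 point a gene with a bar at the median. The medians are 1.56 for the members, -0.62 for receptors, -0.01 for JAK-STAT and IRF genes, 0.20 for sensing upstream of interferon, 0.36 for brakes and 1.06 for the other interferon-stimulated genes.

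Markers of other cell types were set beside these values, and their part in the differences was not tested. Plasmacytoid dendritic cells are specialised interferon producers. Their defining marker Siglech was at or below 0.855 CPM in every library and Klk1 was at 0, and of that list 6 of 10 genes were tested. The list summed to 280 and 345 CPM in the KO libraries, against 162, 268 and 208 CPM in the WT libraries, but its most abundant gene was Bst2, itself a member. Without Bst2 the sums were 100 and 95.9 CPM in the KO libraries, against 109, 142 and 103 CPM in the WT libraries. Most of each sum was Tcf4, with 84.6 and 81.7 CPM in the KO libraries, against 100, 135 and 93.0 CPM in the WT libraries. Of the 6 tested genes, Bst2 included, 5 had a higher fitted level in KO libraries and 1, Tcf4, a lower one. Without overlap, 4 of the tested genes lay higher in KO libraries and 1 lower.

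Conventional dendritic cell markers (5 of 8 tested) summed to 21.9 and 12.3 CPM in the KO libraries, against 276, 167 and 68.6 CPM in the WT libraries. Nearly all of this was the integrin gene Itgax, with 2.81 and 3.69 CPM in the KO libraries, against 271, 162 and 66.5 CPM in the WT libraries. Without Itgax the sums were 19 and 8.64 CPM in the KO libraries, against 4.17, 4.73 and 2.07 CPM in the WT libraries. Of the 5 tested genes, 4 had a higher fitted level in KO libraries. DESeq2 called Batf3 higher and Itgax lower (DESeq2 adjusted p = 0.0434 and 1.1e-15). B cell markers (5 of 10 tested) summed to 27.8 and 14.4 CPM in the KO libraries, against 63.1, 13.5 and 25.7 CPM in the WT libraries. Within that list Cd79b had 16.4 and 9.71 CPM in the KO libraries, against 0.957, 2.72 and 0.217 CPM in the WT libraries, and Cd22, the most abundant, had 3.42 and 2.66 CPM in the KO libraries, against 62.0, 10.7 and 10.5 CPM in the WT libraries. Single genes of a list therefore went opposite ways. T and NK cell markers (3 of 12 tested) summed to 1.83 and 5.60 CPM in the KO libraries, against 38.2, 6.17 and 9.39 CPM in the WT libraries. Most of this was Cd4, and the other 11 genes stayed between 0.671 and 2.94 CPM in all libraries. Neutrophil markers (8 of 10 tested) summed to 10.2 and 185 CPM in the KO libraries, against 159, 23.0 and 28.3 CPM in the WT libraries, and overlapped. Markers of megakaryocytes and erythroid cells (3 of 10 tested) summed to 45.9 and 38.0 CPM in the KO libraries, against 246, 80.9 and 196 CPM in the WT libraries. Without Vwf, the most abundant, they summed to 32.5 and 21.0 CPM in the KO libraries, against 12.5, 21.9 and 122 CPM in the WT libraries, and overlapped.

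The 5hmC data touched few members. Counts in the 9151 peaks of the table came to 46230 and 42489 for KO, against 42678 and 219116 for WT, so only WT replicate 2 was deep. Of the 39 members, 7 (17.9%) had a listed peak in the gene body, against 24.5% of the genes tested in RNA, and the median body lengths were 18989 and 20116 bases. There were 8 such peaks, of which 2 had been called in merged KO libraries, 5 in merged WT libraries and 1 in both. Because peaks were called within a genotype, a difference in the direction of the calling is not independent of how the peak entered the list. Exon and intron were not assigned, as the gene table gives starts and ends only. Summed over the 8 peaks, the members had 60.6 and 87.1 counts per 100000 peak counts in the KO libraries, against 70.3 and 68.0 in the WT libraries. The median log2 RNA difference was 1.49 in the 7 members with a peak and 1.63 in the 32 without one.

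Between them, the KO libraries of 5hmC differed by less than sampling noise (a chi-square of 0.575 per degree of freedom over 2544 peaks). They were counted as 1 sample, their mean, so the spread came from the WT libraries alone. Only 1 member peak passed the filter on low counts, and it did so through the KO level for which it had been called. It lies in Trim25 at chr11:89006858-89007157 (GRCm38). It had 7 and 13 counts in the KO libraries, against 2 and 9 counts in the WT libraries, or 15.1 and 30.6 per 100000, against 4.69 and 4.11 per 100000. The log2 difference was 2.33 ± 0.72 (SE; edgeR adjusted p = 0.00884), and 19.6% of the 941 peaks tested were called in either direction. With total-count scaling the peak was not called, while 45.4% of peaks were, and the split over all peaks turned to 102 higher and 325 lower, beside 154 higher and 30 lower with TMM. Without KO replicate 2, and with the KO libraries as 2 samples, the peak did not pass the filter and was not tested. Without WT replicate 2, run with the KO libraries as 2 samples, it was tested and not called. A second Trim25 peak, at chr11:89008984-89009364 and called in WT, had 5 and 3 counts in the KO libraries, against 8 and 24 counts in the WT libraries. With both peaks summed, Trim25 was the only member tested among genes and had a difference of 1.29 ± 0.58 (SE; edgeR adjusted p = 0.136), where 10.1% of the 1263 gene sums were called. Trim25 was also the member with the smallest RNA difference.

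Usp18 held the member peak with the largest deficit in KO libraries, at chr6:121246822-121247280, 916 bases inside the lower end of the gene body. It had 1 and 0 counts in the KO libraries, against 8 and 39 counts in the WT libraries, or 2.16 and 0 per 100000, against 18.7 and 17.8 per 100000. The count of 0 in KO replicate 2 allows up to 7.06 per 100000, which lies below both WT libraries. Pooled over libraries the ratio of KO to WT was 0.0628 (exact interval 0.00156 to 0.367, 95%, counting error only). The ratios here and below are scaled to total peak counts, while the fits use TMM. This interval and those below sum the counts of both KO libraries as if independent. Because those libraries differed by less than sampling noise, the intervals may be too narrow. The peak did not pass the filter on low counts. Fitted without the filter its log2 difference was -3.33 ± 1.27 (SE; edgeR adjusted p = 0.110), and with the KO libraries summed it was called lower. With the KO libraries summed to 1 sample, 14.6% of the 5750 peaks tested were called, 229 of them lower. The Usp18 peak had been called in WT, so its direction follows the calling.

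The other 5 peaks held few counts. The Ddx58 peak called in KO, at chr4:40233429-40233707, had 4 and 6 counts in the KO libraries, against 3 and 4 counts in the WT libraries, a pooled ratio of 4.22 (exact interval 1.45 to 13.0). Against WT replicate 1 alone the ratio was 1.6 (exact interval 0.413 to 9.07), so the pooled value rests on the deeper WT replicate 2. The Oasl1 peak called in both genotypes, at chr5:114926796-114927138, had 6 and 8 counts in the KO libraries, against 3 and 23 counts in the WT libraries, a pooled ratio of 1.59 (exact interval 0.767 to 3.16). The member with the largest RNA difference therefore showed no detectable 5hmC difference at this depth. Peaks called in WT lay in Ifih1, Oas1a and Parp14. Ifih1 had 1 and 1 counts in the KO libraries, against 0 and 18 counts in the WT libraries, a pooled ratio of 0.328 (exact interval 0.0369 to 1.37). Oas1a had 1 and 2 counts in the KO libraries, against 4 and 9 counts in the WT libraries, a pooled ratio of 0.681 (exact interval 0.124 to 2.48), and a ratio of 0.361 against WT replicate 1 alone. Parp14 had 3 and 4 counts in the KO libraries, against 2 and 23 counts in the WT libraries, a pooled ratio of 0.826 (exact interval 0.302 to 1.96), and a ratio of 1.68 against WT replicate 1 alone. In these 3 genes the interval includes equality. Fitted with TMM and without the filter, their log2 differences were -1.02 ± 1.35, 0.01 ± 1.32 and 0.28 ± 0.83 (SE) in that order. The direction of these ratios therefore depends on the scaling in Oas1a and Parp14. Within 2 kb outside a body there were further peaks near Mx2, Parp12 and Ddx58. The Parp12 peak, 1826 bases from the body, had 17 and 17 counts in the KO libraries, against 11 and 48 counts in the WT libraries.

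**Figure D5:**
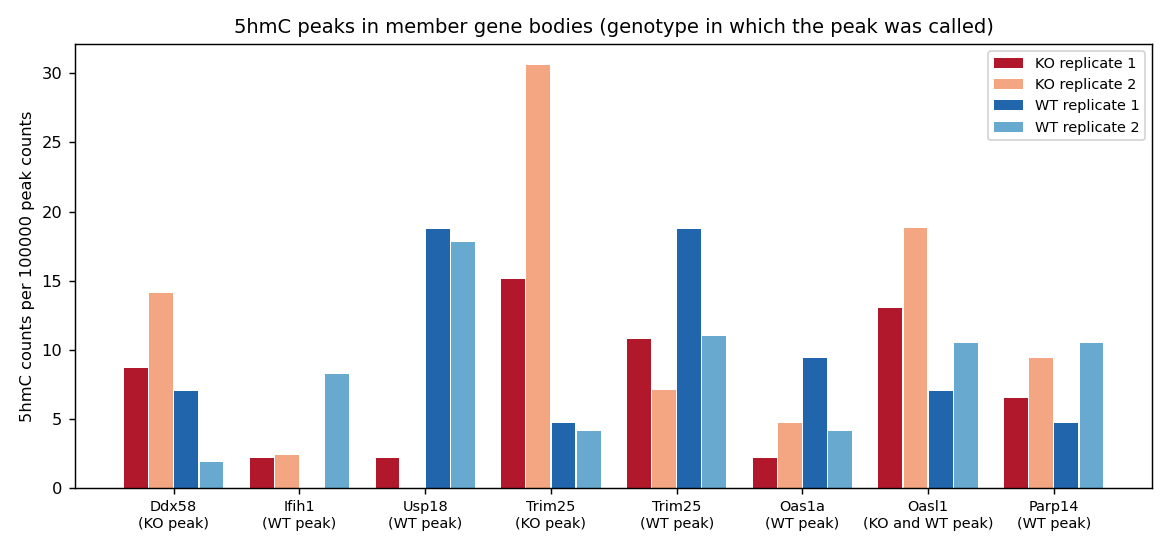
Bars give 5hmC counts per 100000 peak counts in each KO and WT library for the 8 listed peaks in member gene bodies, with the genotype in which each peak was called. The Usp18 peak has 2.16 and 0 in KO, against 18.7 and 17.8 in WT, and the first Trim25 peak has 15.1 and 30.6 in KO, against 4.69 and 4.11 in WT.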

How the data were processed

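RNA values are counts of reads per gene and 5hmC values counts per peak, both as the authors deposited them. Per the submitters' processing notes, the build was GRCm38 and the tools were HTSeq, MACS2, BWA, STAR, Trim Galore and CASAVA 1.4. Roles, annotation and strand setting are not stated there. Groups and replicate numbers came from the labels. RNA (14851 of 47731 genes) and 5hmC (941 of 9151 peaks) were each fitted over the whole table with edgeR 4.0.16 in R 4.3.3 (glmQLFit, glmQLFTest, TMM, filterByExpr, two-sided, Benjamini-Hochberg, threshold 0.05). The steps were tested on simulated data. Alternatives were DESeq2 1.42.0, voom of limma 3.58.1, other scalings and filters, each replicate left out, a stromal mask and a replicate block. Intervals and the floor of 3 counts for a 0 cover counting error only. The intervals sum both KO libraries of 5hmC as if independent and may be too narrow. Precision is limited by 16053426 to 56394358 RNA counts and 42489 to 219116 5hmC counts per library.

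Peaks were given to members by an overlap of at least 1 base with the RefSeq gene body. Promoter motifs were searched in the RefSeq table. The members and lists were chosen with earlier results of these data known. Up to 3 members of a role group with the smallest unadjusted p were to be given library by library, all 8 member peaks were named, and pathway genes were a set list, of which 1 is not reported here. Ddx58, Trim25, Mx1, Ifit1, Dtx3l, Ifi204 and Ifi27 were added after their values were seen.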

Additional observations from a re-analysis of the deposited data

How the results depend on the processing

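All 39 members had a higher fitted RNA level in KO libraries under every RNA alternative run. The median difference lay between 1.26 and 2.41 on the log2 scale, at 1.73 with limma-voom and 1.68 with the replicate block. DESeq2 called 13 members and 12 pathway genes, where edgeR and limma-voom called 0 of each. Leaving out a replicate under DESeq2 was an alternative chosen after seeing the data. Without WT replicates 1, 2 and 3 in turn DESeq2 called 14, 35 and 6 members and 6, 27 and 9 pathway genes. At an unadjusted DESeq2 p under 0.05 there were 31, 38 and 22 members. Over all tested genes, DESeq2 called 367 of 15468, 618 of 14222 and 569 of 14218 higher in KO libraries. Without KO replicates 1 and 2 in turn only 1 KO library remained, and the median difference was 1.38 and 1.77. The count of members at an unadjusted edgeR p under 0.05, a result added after seeing the data, was 25. It became 16 with the replicate block, where WT replicate 3 was alone in its block and added nothing to the genotype contrast. Without WT replicates 1, 2 and 3 in turn it was 22, 38 and 16. The replicate numbers were not shown to pair the libraries, and the block called 0 members. Deviations of KO and WT replicate 1 correlated at 0.0705 and of replicate 2 at -0.0936 over 14851 genes. With 2 KO libraries the KO deviations mirror each other, so KO replicate 1 with WT replicate 2 was bound to give 0.0936. These values are therefore not independent checks of a pairing. The median of all tested genes, -0.03, lay on either side of 0 and moved most to -0.16 without a filter and to -0.14 without KO replicate 2. The count of called member peaks in 5hmC was 1, and 0 with the KO libraries as 2 samples (edgeR, DESeq2 or with the replicate block) or total-count scaling, 2 with the KO libraries summed, and 0 to 1 when a replicate was left out. With the KO libraries as 2 samples and without KO replicate 2 no member peak passed the filter, so these counts of 0 follow from it. Over all peaks the share called ran between 5.09% without a filter and 63.1% with the KO libraries as 2 samples. Called member gene sums were 0, where 10.1% of all gene sums were called. With the KO libraries as 2 samples edgeR called 1 member without the replicate block and 1 with it, where 36.6% and 34.7% of all gene sums were called. DESeq2 called 0 members there, and 14.2% of all. With the KO libraries summed 2 members were called, and 15.8% of all. With a replicate left out 1 library remained in a genotype, so those counts of gene sums are not given. The share of member promoters with the response element core was 58.6%, and 48.3% and 37.9% when 1 and 2 further bases were required. Marker sums without their most abundant gene and peak ratios against single WT libraries were chosen after seeing the data. The cause of the other changes was not tested. Depth limits the 5hmC values, with 7 of the 8 member peaks below the filter on low counts.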

Other observations

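Among the pathway genes that DESeq2 called, named after their values were seen, several other interferon-stimulated genes had both KO libraries above every WT library. Rnf213, a giant ubiquitin ligase, had 2952 and 2184 CPM in the KO libraries, against 442, 1322 and 406 CPM in the WT libraries (log2 1.83 ± 0.61, SE; edgeR adjusted p = 0.299, DESeq2 adjusted p = 0.0440). Parp10, a further ADP-ribosyltransferase, had 111 and 84.9 CPM in the KO libraries, against 37.6, 51.5 and 35.5 CPM in the WT libraries (log2 1.24 ± 0.25, SE; edgeR adjusted p = 0.199, DESeq2 adjusted p = 0.00206). In both genes KO replicate 1 was the highest library and WT replicate 2 the highest of WT. Ms4a4c, a membrane protein gene of myeloid cells, had 220 and 55.5 CPM in the KO libraries, against 0.889, 9.67 and 0.769 CPM in the WT libraries (log2 5.16 ± 1.35, SE; edgeR adjusted p = 0.238, DESeq2 adjusted p = 0.000590). Its difference exceeded that of every member.

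Tlr7, the endosomal sensor of single-stranded RNA, was the pathway gene that DESeq2 called lower. It had 112 and 113 CPM in the KO libraries, against 234, 222 and 156 CPM in the WT libraries (log2 -0.86 ± 0.26, SE; edgeR adjusted p = 0.266, DESeq2 adjusted p = 0.0317). Myd88, the adaptor through which it signals, had 91.6 and 84.8 CPM in the KO libraries, against 49.9, 60.6 and 51.1 CPM in the WT libraries (log2 0.71 ± 0.19, SE; edgeR adjusted p = 0.238, DESeq2 adjusted p = 0.0122). The receptor and its adaptor thus lay on opposite sides of WT, in each case without overlap.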
